A study of Mus musculus with 26 samples.

Results

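Collagen genes were examined across the whole series. They were taken as every gene in the deposited count table whose symbol has the form of a collagen alpha chain (Col, a type number, the letter a and a chain number), provided that it had 10 or more counts over all libraries. This gave 44 genes of the 55291 in the table, and no gene with such a symbol failed the count minimum. Of the 44, 41 passed the filter on low counts and were tested, and Col4a3, Col10a1 and Col19a1 were not. By the architecture of their proteins they comprised 11 fibrillar collagens, 6 basement membrane network chains, 3 short-chain network chains, 7 beaded filament chains, 9 fibril-associated collagens, 1 anchoring fibril chain, 2 multiplexins, 4 transmembrane collagens and Col26a1, which stood alone.

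Collagens are secreted or membrane-bound proteins in which chains wind into a triple helix, and they form the scaffold of the extracellular matrix. Fibrillar chains build the tensile fibrils of connective tissue, type IV chains build the sheet-like network of basement membranes, and the multiplexin Col18a1 joins that membrane as a heparan sulfate proteoglycan whose C-terminal piece is endostatin. In the early mouse embryo basement membrane appears with the primitive endoderm, and the parietal endoderm derived from it secretes large amounts of type IV collagen, whereas fibrillar type I and III collagens are products of mesenchyme and fibroblasts.

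The measurements were gene counts from poly(A) RNA-seq of the mouse embryonic stem cell line R1, kept with LIF on gelatin, in 26 libraries that formed 13 groups of 2 replicates. Wild-type cells were untreated (ESC), given the vehicle DMSO (DMSO), given 0.53 µM retinoic acid for 48 h (RA), or given 4 nM pladienolide B, an inhibitor of the splicing factor SF3B1, for 4 days (PlaB). Doxycycline at 4 µg/mL for 24 h induced Zscan4 (Zscan4 OE), the totipotency factor Dux (Dux OE) or a Dux mutant that the study describes as deficient in phase separation (Dux R70A OE). Knockdown cells (Dux KD) were sequenced with RA, PlaB or Zscan4 OE, and cells without the Tdpoz super-enhancer (SE KO) with PlaB, with RA or with Dux OE. The treatment label of both Dux KD Zscan4 OE libraries names no doxycycline, and 1 SE KO RA library carries a wild-type genotype label beside an SE KO title. Dux KD and SE KO cells without induction were not analysed here, and whether the SE KO cells are a single clone is not given in the sources used here. No group labelled as a control for the knockdown vector was among the libraries. Knockdown or knockout thus cannot be told apart from differences of vector, clone or culture. The effect of a knockdown or knockout below names the difference between such groups. The study calls the replicates of the SE KO comparisons with RA and with Dux OE biological, and for the other groups the sources used here do not say that they came from separate cultures, so the p-values there measure the spread between these libraries, which may be technical.

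Library totals lay between 14401452 and 39402840 counts, the deepest being SE KO Dux OE replicate 1. The knockdown target, counted on Duxf3, stood at 9.23 and 8.2 CPM in PlaB and at 0.0589 and 0 CPM in Dux KD PlaB (replicates 1 and 2 in turn, here and throughout). It stood at 2.16 and 2.75 CPM in RA and at 0.918 and 0.353 CPM in Dux KD RA. In SE KO cells Duxf3 stood at 0.0930 and 0.423 CPM with RA and at 1.65 and 2.10 CPM with PlaB. With Dux OE it stood at 1.46 and 1.28 CPM in SE KO cells and at 4.01 and 3.24 CPM without the knockout. Both Dux R70A OE libraries had 0 counts on Duxf3, so the mutant transgene could not be checked on this gene. Zscan4c stood at 100 and 103 CPM in Zscan4 OE, at 5.73 and 6.13 CPM in ESC and at 0.779 and 1.13 CPM in the libraries labelled Dux KD Zscan4 OE. Zscan4c in the latter was thus below that of untreated cells, though their label names Zscan4 overexpression. Reads of a transgene, of the gene's own RNA and of near-identical Zscan4 copies could not be told apart. Whether Zscan4 was induced in these libraries could therefore not be checked on this gene. Duxf3 stood at 1.75 and 0.923 CPM in Zscan4 OE and at 0.0649 and 0 CPM in the libraries labelled Dux KD Zscan4 OE. The replicates lay furthest apart in SE KO PlaB and in the libraries labelled Dux KD Zscan4 OE, where chi-square per degree of freedom over genes was 30.2 and 26.1, against 1.55 to 9.81 in the other groups. All 7 pluripotency markers were detected in every group. The summed RPKM of 6 genes of the 2-cell-like state, which include Zscan4c and Zscan4d, was 3174 and 3324 in PlaB, 3.42 and 2.95 in DMSO and 3.04 and 3.26 in Dux KD PlaB. This sum was 241 and 187 in RA and 172 and 166 in Dux KD RA.

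Levels are given as CPM (counts scaled to library size with TMM factors), or as RPKM (CPM per kilobase of exon) where genes are set beside each other. A gene at or under 3 counts in both libraries of a group was treated as at the counting floor, which lay between 0.0796 and 0.226 CPM. A fold against such a group was taken against 3 counts per library and is a lower bound.

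Collagen RNA in these cells was mostly basement membrane RNA. By RPKM, Col18a1 was the leading collagen gene in all 13 groups and Col4a1 was the next. Col18a1 stood at 68.5 RPKM in ESC, where it made up 72.2% of all collagen RPKM, and its share was 31.6% in RA and 30.1% in PlaB. The summed RPKM of the 44 genes was 66.3 and 70.9 in DMSO, 233 and 248.6 in RA and 18.2 and 20.1 in PlaB. Neither treatment overlapped the vehicle, and they lay on opposite sides of it. Col4a2 ranked after them except in Dux KD RA and Zscan4 OE, where Col9a2 did, and in PlaB, where Col13a1 did.

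**Figure D1:**
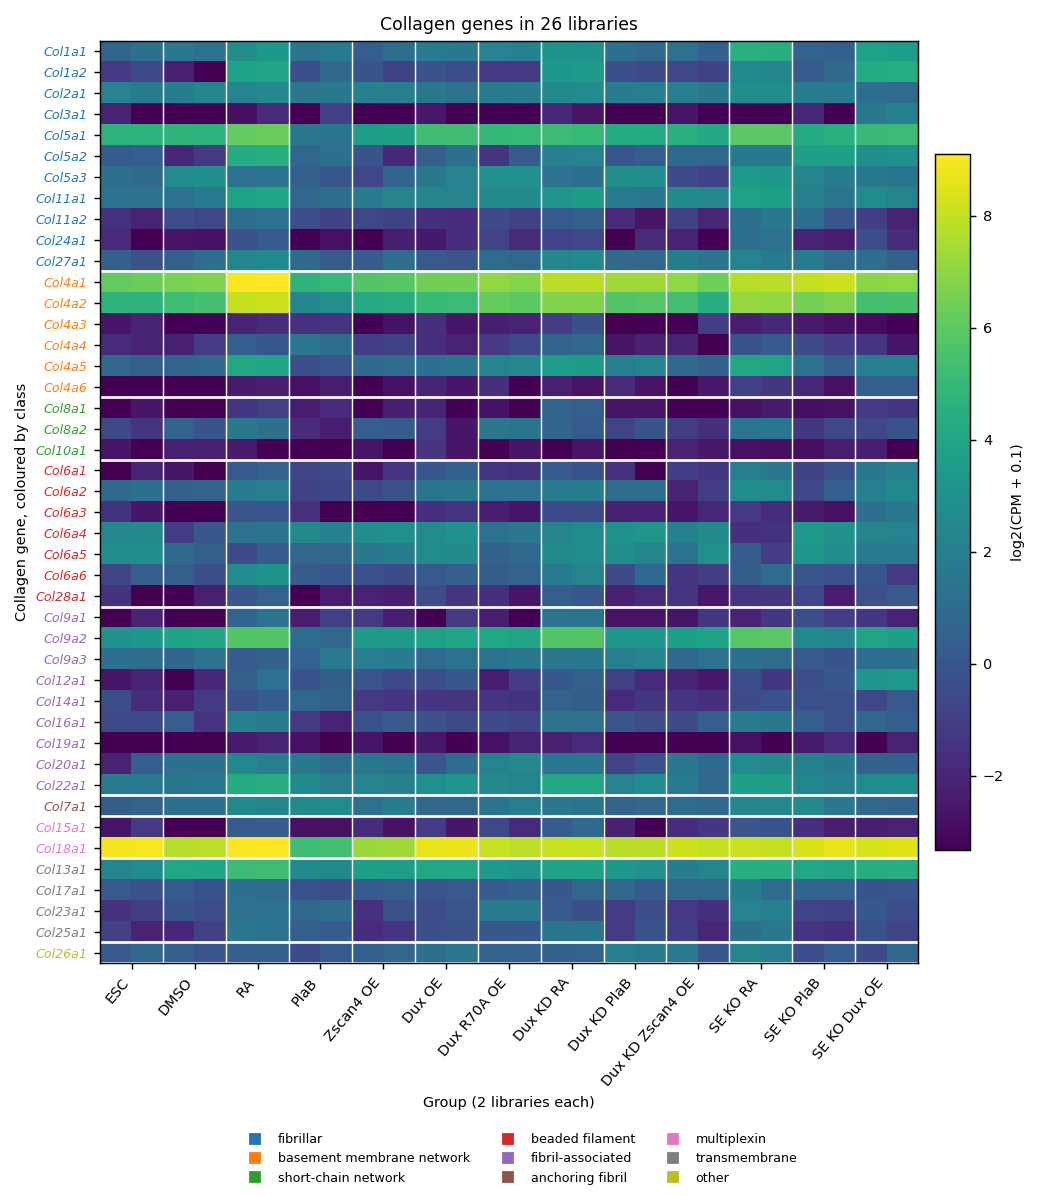
Level of each of the 44 collagen genes (vertical axis, coloured by class) in each of the 26 libraries (horizontal axis, 2 per group), as log2(CPM + 0.1) on the colour scale. Col18a1 and Col4a1 stand out in every group, and the RA columns are brighter than the DMSO columns over most of the map.

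Promoter sequence could be examined for 35 of the 44 genes, matched by symbol to RefSeq entries (GRCm38.p6), which gave 38 start sites. The 250 bases before each start were searched on both strands for 4 motifs. GGGCGG, the GC box, was in 22 of 38 collagen promoters (57.9%) and in 32.7% of all 32851 promoters. CCAAT was in 34.2% against 33.8%, TATAAA in 13.2% against 12.4%, and AGGTCA, the core of retinoic acid receptor sites, in 21.1% against 14.0%. These are matches of letters and not binding sites. Stretches of 4 of these windows that hold no annotated exon are shown for genes whose levels are described next, 5′ to 3′ on the gene's strand, with GGGCGG and CCAAT or their reverse complements in capitals. The Col18a1 stretch is chr10:77166549-77166780 on the minus strand, and those on the plus strand are chr2:27886175-27886424 for Col5a1, chr6:4505370-4505492 for Col1a2 and chrX:141475169-141475384 for Col4a5. The Col1a2 stretch precedes a RefSeq start but lies inside the gene span used for the counts (chr6:4504814-4541544).
Col18a1: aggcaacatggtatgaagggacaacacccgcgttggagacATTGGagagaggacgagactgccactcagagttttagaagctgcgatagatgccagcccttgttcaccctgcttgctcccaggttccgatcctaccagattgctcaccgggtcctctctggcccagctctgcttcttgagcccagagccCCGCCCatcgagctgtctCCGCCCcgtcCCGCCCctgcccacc
Col5a1: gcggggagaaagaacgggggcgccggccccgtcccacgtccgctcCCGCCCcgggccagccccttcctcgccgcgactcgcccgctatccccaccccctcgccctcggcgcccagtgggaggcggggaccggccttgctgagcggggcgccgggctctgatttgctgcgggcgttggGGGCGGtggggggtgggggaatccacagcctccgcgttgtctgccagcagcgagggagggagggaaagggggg
Col1a2: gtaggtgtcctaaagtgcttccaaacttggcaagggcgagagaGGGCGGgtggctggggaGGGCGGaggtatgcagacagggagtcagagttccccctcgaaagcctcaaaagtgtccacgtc
Col4a5: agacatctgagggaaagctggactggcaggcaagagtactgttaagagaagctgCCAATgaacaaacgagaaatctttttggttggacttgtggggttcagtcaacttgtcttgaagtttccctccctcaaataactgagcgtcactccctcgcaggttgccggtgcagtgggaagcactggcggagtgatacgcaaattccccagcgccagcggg
The Col18a1 stretch held 3 GC boxes and 1 CCAAT match. The Col5a1 stretch was the richest in G and C (76.4%) and held 2 GC boxes, as did the Col1a2 stretch at 59.3%. The Col4a5 stretch, at 52.3%, held 1 CCAAT match and no GC box. Exon bases left out of the windows numbered 34 for Col4a5 and 127 for Col1a2. Over the full 250 bases Col4a5 was counted with a GC box and Col1a2 with CCAAT, so these absences hold for the printed stretches only. None of the 4 stretches held TATAAA or AGGTCA.

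The first comparison asked how retinoic acid changed collagen RNA against its vehicle. RA raised collagen genes of every class but that of Col26a1. Of the 41 tested, 34 were called higher and 1 was lower by edgeR's quasi-likelihood test (called means a Benjamini-Hochberg adjusted p under 0.05 and at least a doubling or halving), where 31.0% of all 20953 tested genes were called, 20.6% as higher and 10.4% as lower. The median log2 fold change was 2.06 over the collagen genes and 0.105 over all tested genes. In bulk RNA, more cells of a type and more RNA per cell cannot be told apart.

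Type IV collagen, the network former of basement membranes, carried most of the added RNA. Col4a1 stood at 98.1 and 104.9 CPM in DMSO and at 508 and 538 CPM in RA, a log2 fold change of 2.37 ± 0.12 (SE; edgeR adjusted p = 6.06e-15). Its partner Col4a2 went from 38.4 and 43.9 to 256 and 287 CPM (2.72 ± 0.15; edgeR adjusted p = 2.08e-14). For both genes the RA libraries were several-fold above both DMSO libraries. Col4a5, a chain of the kidney, lung and eye network, rose from 1.42 and 1.59 to 17.3 and 15.7 CPM, and Col4a4 passed the test at a far lower level (0.114 and 0.384 to 1.19 and 0.932 CPM). Col4a6 was at the floor in both groups. Summed over its 6 chains, the class went from 19.2 and 21.0 RPKM in DMSO to 109.4 and 118 RPKM in RA.

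Both multiplexins rose. Col18a1 went from 214 and 231 to 521 and 549 CPM (1.27 ± 0.09; edgeR adjusted p = 6.13e-12). This rise depended on the control, since untreated ESC stood at 478 and 483 CPM and the log2 fold change of RA against ESC was 0.154 (edgeR adjusted p = 0.152). Col15a1, the related chain of basement membranes in muscle and vessels, was at 0 counts in DMSO and at 1.06 and 1.12 CPM in RA, at least 6.5-fold higher.

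**Figure D2:**
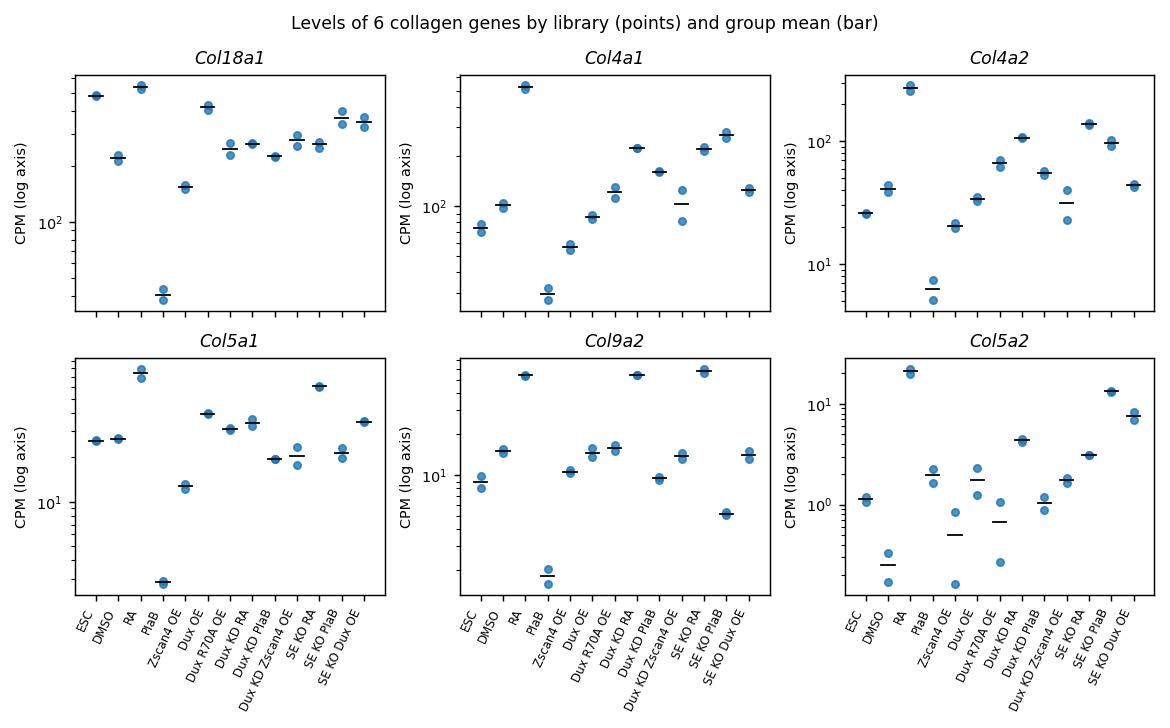
CPM on a log axis of 6 collagen genes in each library (points) of the 13 groups, with group means as short lines. Col18a1, Col4a1, Col4a2, Col5a1 and Col9a2 are lowest in PlaB, and Col5a2 is highest in RA at 19.9 and 22.2 CPM.

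Of the 11 fibrillar collagens, 8 rose in RA and Col5a3 fell. Col1a2, the second chain of type I collagen, was at 0.114 and 0 CPM in DMSO and at 14.8 and 15.4 CPM in RA, at least 90.0-fold higher. Col5a2 went from 0.170 and 0.329 to 19.9 and 22.2 CPM (6.35 ± 0.39; edgeR adjusted p = 1.5e-13). For these 2 genes a scarcely counted transcript became an abundant one in both RA libraries. Col1a1, the main chain of type I collagen, rose by less, from 2.89 and 2.47 to 7.0 and 9.64 CPM (1.63 ± 0.23). Col5a1, which with Col5a2 makes the fibril-nucleating type V collagen, went from 27.0 and 26.5 to 69.4 and 79.3 CPM (1.48 ± 0.11). The cartilage fibril chains Col11a1 (2.33 ± 0.20) and Col11a2 (1.83 ± 0.46) rose as well, as did the minor fibrillar chains Col24a1 and Col27a1. Col2a1, the principal collagen of cartilage, stood at 3.69 and 5.05 CPM in DMSO and 4.85 and 5.59 CPM in RA and was not called. Col3a1, the partner of type I collagen in soft tissues, had at most 0.186 CPM in either group. Col5a3 went the other way, from 6.24 and 7.07 to 2.47 and 2.61 CPM (-1.39 ± 0.24; edgeR adjusted p = 1.46e-05), but against untreated ESC its log2 fold change was 0.323 and did not pass (edgeR adjusted p = 0.338).

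The fibril-associated collagens, which sit on the surface of fibrils, gave 7 rises among 8 tested. Col9a2 of type IX collagen was the most abundant, at 14.7 and 15.6 CPM in DMSO and 54.4 and 54.0 CPM in RA (1.84 ± 0.12; edgeR adjusted p = 2.42e-13). Its partner chain Col9a1 went from 0 counts to 1.59 and 2.52 CPM, at least 12.3-fold higher, while the third chain Col9a3 stood at 1.53 and 2.52 against 1.10 and 1.35 CPM and did not pass. Col22a1, a collagen of tissue junctions, went from 2.61 and 3.02 to 19.6 and 21.1 CPM (2.85 ± 0.22). Col12a1 (at least 11.1-fold higher), Col14a1, Col16a1 and Col20a1 made up the other rises.

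Of 7 beaded filament chains, 6 rose, namely 5 chains of type VI collagen and Col28a1. Col6a1 and Col6a3 of the canonical type VI trimer and Col28a1 were at the floor in DMSO. Col6a1 reached 1.06 and 1.44 CPM and Col6a3 0.881 and 0.885 CPM in RA. Col6a2 went from 1.31 and 1.43 to 3.48 and 3.82 CPM (1.41 ± 0.29), and Col6a6 from 1.25 and 0.713 to 6.78 and 8.57 CPM (2.96 ± 0.40). Against untreated ESC the change of Col6a2 was 0.842 and no longer a doubling. All 4 transmembrane collagens rose, led in level by Col13a1, an adhesion collagen that went from 17.4 and 16.5 to 36.3 and 37.5 CPM. The anchoring fibril chain Col7a1 (1.15 ± 0.26) and both tested short-chain genes, Col8a1 and Col8a2, rose, whereas Col26a1 did not pass.

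Markers of other cell types moved with RA. The summed RPKM of 8 primitive and parietal endoderm markers was 2.61 and 2.43 in DMSO and 21.5 and 21.7 in RA, with Foxa2 at the floor in DMSO. That of 9 fibroblast or feeder markers was 16.0 in both DMSO libraries and 24.4 and 26.7 in RA, where Postn and Lum were at the floor and 3 of the 9 (Fbn1, Pdgfrb and Prrx1) were called higher. The summed pluripotency markers went from 2661 and 2733 to 1346 and 1372 RPKM. Their part in the collagen changes was not tested.

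**Figure D3:**
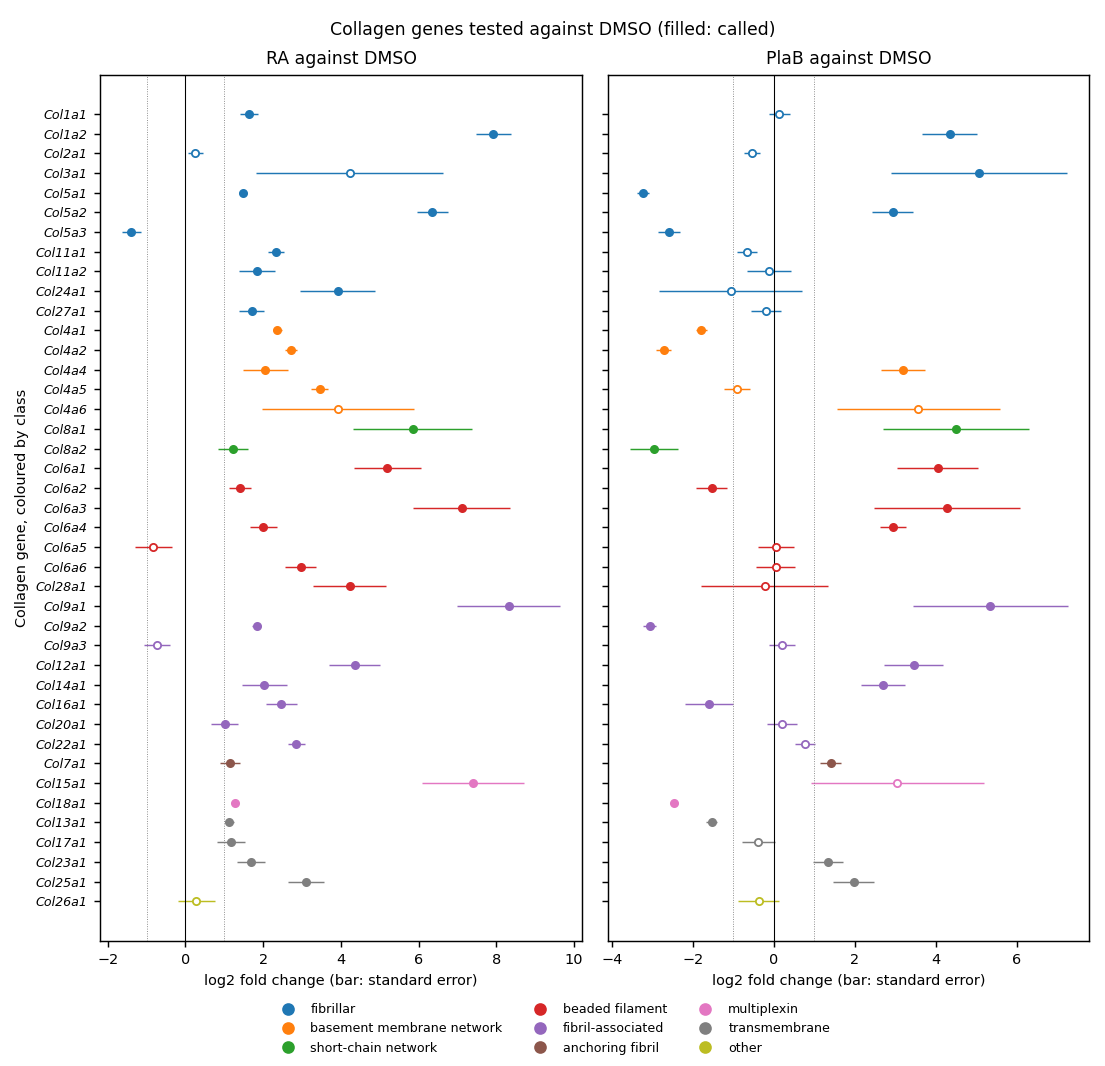
Log2 fold change against DMSO (horizontal axes, with separate scales) of the 41 tested collagen genes (vertical axis, coloured by class) for RA and for PlaB, with standard errors as bars, dotted lines at a doubling and a halving, and filled points for called genes. In RA 34 filled points lie on the right, and in PlaB 14 lie on the right and 10 on the left.

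PlaB lowered the abundant collagens and raised a number of scarce ones. Of the 41 genes, 14 were higher and 10 lower than in DMSO, where 58.9% of all tested genes were called, 32.3% as higher and 26.6% as lower. The collagen share was thus close to that of all genes, and the median log2 fold change was 0.05 against 0.224 over all genes. These comparisons share the DMSO libraries with those of RA. Against untreated ESC, 16 of the 41 genes were called in PlaB, a smaller share than the 56.0% of all tested genes.

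The genes that led the collagen RNA of untreated cells were among those that fell. Col18a1 went from 214 and 231 to 37.6 and 43.2 CPM (-2.46 ± 0.10; edgeR adjusted p = 3.71e-18). Col4a1 fell to 26.9 and 31.8 CPM (-1.79 ± 0.13) and Col4a2 to 5.04 and 7.35 CPM (-2.72 ± 0.18). Col5a1 went from 27.0 and 26.5 to 2.91 and 2.77 CPM (-3.23 ± 0.14; edgeR adjusted p = 1.59e-17) and Col9a2 from 14.7 and 15.6 to 2.03 and 1.59 CPM (-3.06 ± 0.16). In each of these genes both PlaB libraries lay below every library of the other 12 groups. Col13a1 and the scarcer Col5a3, Col8a2, Col16a1 and Col6a2 also fell, of which Col16a1 overlapped between the groups and Col8a2 did not pass against untreated ESC (log2 fold change -1.53, edgeR adjusted p = 0.0612).

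The genes that rose in PlaB were low in both groups. Col6a4, a long type VI chain, went from 0.340 and 0.932 to 5.62 and 4.31 CPM (2.94 ± 0.32; edgeR adjusted p = 3.35e-09), and Col7a1 from 2.33 and 2.30 to 5.86 and 6.40 CPM (1.40 ± 0.26). Col5a2 went from 0.170 and 0.329 to 1.65 and 2.27 CPM (2.94 ± 0.51), which against ESC was 0.797 and did not pass (edgeR adjusted p = 0.0644). Col4a4 reached 2.81 and 1.91 CPM, its highest level in the series. Col1a2 was at least 7.46-fold, Col12a1 at least 5.84-fold and Col6a1 at least 3.35-fold higher than DMSO, where all 3 were at the floor. Col3a1 was called as higher on 1 library, with 0 and 0.408 CPM, and without PlaB replicate 2 its log2 fold change was 0. Endoderm markers summed to 5.33 and 5.96 RPKM in PlaB, and fibroblast markers to 3.73 and 4.10 RPKM, below the 16.0 RPKM of DMSO.

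The vehicle itself was compared with untreated cells, since 3 overexpression groups use the latter as their control. Here 11 collagen genes differed, 4 higher and 7 lower in DMSO, with 16.2% of all tested genes called, 8.32% as higher and 7.91% as lower. Col18a1 was 214 and 231 CPM in DMSO and 478 and 483 CPM in ESC (-1.11 ± 0.09; edgeR adjusted p = 3.27e-10). Col6a4 was 0.340 and 0.932 CPM against 5.23 and 5.73 CPM (-3.08 ± 0.32), and Col6a5 1.82 and 1.26 against 6.98 and 7.07 CPM (-2.19 ± 0.38). Col13a1 was the clearest gene on the other side, at 17.4 and 16.5 CPM against 4.98 and 6.20 CPM (1.60 ± 0.15). Col1a2, Col5a2, Col6a3 and Col15a1 were also lower in DMSO, and Col5a3, Col8a2 and Col20a1 higher. The calls for Col1a2, Col5a2 and Col20a1 were lost without 1 library, with edgeR adjusted p = 0.122 for Col1a2 without DMSO replicate 2 and 0.120 without ESC replicate 2, 0.0544 for Col5a2 without DMSO replicate 1, and for Col20a1 a log2 fold change of 0.92, not a doubling, without ESC replicate 1. Without DMSO replicate 1, 7 genes were called.

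Zscan4, Dux and Dux R70A overexpression were compared with untreated ESC. The overexpressing cells were given doxycycline and untreated ESC were not. No group of uninduced cells with these constructs, or of ESC with doxycycline alone, was among the libraries. The factor, the drug and the cell line thus cannot be told apart in these comparisons. Zscan4 OE differed in 10 genes, 5 in each direction, with 11.6% of all tested genes called, 7.25% as higher and 4.39% as lower. With scaling by library size only, the split was 5 higher and 3 lower. Col18a1 went from 478 and 483 to 151 and 159 CPM (-1.63 ± 0.10; edgeR adjusted p = 7.58e-13) and Col5a1 from 26.2 and 25.7 to 12.2 and 13.1 CPM (-1.03 ± 0.12). Col13a1 went from 4.98 and 6.20 to 12.8 and 12.0 CPM (1.14 ± 0.15). No type IV chain reached the fold threshold with an adjusted p under 0.05, and Col4a1 stood at 54.3 and 58.7 CPM against 69.95 and 78.4 CPM (edgeR adjusted p = 0.0143). The call of Col5a1 sat at the fold threshold and was lost without Zscan4 OE replicate 1, where its log2 fold change was -0.98. Against DMSO, Col18a1 was lower by less than a halving (-0.52), and Col6a5, 1.06 lower against ESC on the log2 scale, was 1.12 higher. The call of Col6a5 against ESC was lost in 3 of the 4 fits that left out 1 library (edgeR adjusted p = 0.0527 without ESC replicate 1, 0.0545 without ESC replicate 2 and 0.098 without Zscan4 OE replicate 1).

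In Dux OE against ESC, 4 collagen genes were called higher and 0 lower by edgeR, while 9.51% of all tested genes were called, 7.38% as higher and 2.12% as lower. The collagen share of 9.76% was thus close to that of all genes. The median log2 fold change was 0.592 over the collagen genes and 0 over all tested genes. At an unadjusted p under 0.05, 2 collagen genes, Col2a1 and Col18a1, were lower, and DESeq2 called 0. Col13a1 went from 4.98 and 6.20 to 16.8 and 18.2 CPM (1.65 ± 0.15; edgeR adjusted p = 1.3e-09) and Col22a1 from 3.55 and 3.40 to 7.44 and 8.72 CPM (1.22 ± 0.23). Col6a1 reached 0.948 and 1.35 CPM, at least 5.95-fold above ESC, and Col12a1 0.656 and 0.946 CPM, at least 4.14-fold. The call of Col12a1 was lost without ESC replicate 1 (edgeR adjusted p = 0.0837) or Dux OE replicate 2 (0.0671). Col18a1 stood at 406 and 432 CPM against 478 and 483 CPM in ESC and was not called. With DMSO as the control, 13 genes were called, of which 3 were among the 4, while the share of all tested genes called was 18.2%, and Col13a1 was 0.05 on the log2 scale (edgeR adjusted p = 0.787).

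Dux R70A OE gave 10 higher genes and 1 lower against ESC, with 16.9% of all tested genes called, 10.2% as higher and 6.72% as lower. Against Dux OE it gave 6 higher and 5 lower, with 13.6% of all tested genes called (6.11% as higher and 7.51% as lower), and 8 higher and 4 lower with scaling by library size only. Col23a1, a transmembrane collagen, stood at 3.33 CPM in both Dux R70A OE libraries, at 0.656 and 0.879 CPM in Dux OE and at 0.249 and 0.400 CPM in ESC (2.10 ± 0.37 against Dux OE; edgeR adjusted p = 4.75e-05). Col8a2, a network chain of corneal and vascular matrix, stood at 2.90 and 2.64 CPM against 0.365 and 0.0676 CPM in Dux OE (3.68 ± 0.55). For both genes the mutant libraries lay above all libraries of Dux OE and ESC. Col20a1, Col7a1, Col5a3 and Col4a5 were also higher than in Dux OE. Col4a5 was no longer a doubling without Dux OE replicate 1 (log2 fold change 0.899) or Dux R70A OE replicate 2 (0.903). Col4a2 stood at 71.0 and 61.9 CPM against 32.7 and 35.2 CPM in Dux OE and 25.7 and 26.3 CPM in ESC. It was called against ESC (1.35 ± 0.16) and was just short of a doubling against Dux OE (0.97).

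On the other side, Col6a5 stood at 1.34 and 1.88 CPM in Dux R70A OE against 6.49 and 6.08 CPM in Dux OE (-1.97 ± 0.38; edgeR adjusted p = 0.000173). Col6a4 stood at 2.47 and 3.08 against 6.20 and 7.64 CPM (-1.33 ± 0.25). Both mutant libraries were below both Dux OE libraries for these 2 neighbouring genes of chromosome 9. Col6a1, Col12a1 and Col5a2 were the other 3 lower genes, and each lost its call without Dux OE replicate 2 (edgeR adjusted p = 0.0807, 0.221 and 0.267). Col12a1 and Col5a2 also lost it without Dux R70A OE replicate 1 (0.297 and 0.254), and Col12a1 without Dux OE replicate 1 (0.0512). Against DMSO in place of ESC, 7 genes were called in Dux R70A OE, of which 5 were among the 11, while 9.05% of all tested genes were called, and Col6a5 no longer differed by the test (0.06; edgeR adjusted p = 0.974).

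Knockdown of Dux was compared in cells given RA. Dux KD RA differed from RA in 12 collagen genes, 4 higher and 8 lower, with 10.9% of all tested genes called (6.41% as higher and 4.53% as lower). The lower genes included the leading basement membrane genes. Col4a1 stood at 225 CPM in both Dux KD RA libraries against 508 and 538 CPM in RA (-1.22 ± 0.12; edgeR adjusted p = 9.55e-09), and Col4a2 at 105.7 and 107.6 against 256 and 287 CPM (-1.34 ± 0.14). Col5a2 fell from 19.9 and 22.2 to 4.19 and 4.48 CPM (-2.28 ± 0.25), Col5a1 from 69.4 and 79.3 to 36.1 and 32.4 CPM (-1.12 ± 0.10), and Col13a1 from 36.3 and 37.5 to 14.2 and 14.9 CPM (-1.34 ± 0.12). These genes lay between their RA and DMSO levels in the knockdown libraries, except Col13a1, which was below both DMSO libraries. Col18a1 stood at 266 and 265 CPM against 521 and 549 CPM, and its log2 fold change of -1.01 was at the threshold (-0.98 without RA replicate 2).

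Collagen genes that stood as high with the knockdown as without it included Col9a2, at 54.4 and 54.3 CPM against 54.4 and 54.0 CPM. Col6a5 rose from 0.617 and 1.12 to 5.80 and 6.36 CPM (2.81 ± 0.40; edgeR adjusted p = 3.68e-06), and Col6a4 from 2.51 and 2.66 to 4.65 and 6.30 CPM (1.08 ± 0.24), the latter 0.851 without Dux KD RA replicate 2. Col9a3 and Col8a1 were the other rises. The endoderm markers summed to 21.8 and 22.1 RPKM, near the 21.5 and 21.7 RPKM of RA, while the fibroblast markers stood at 14.2 and 14.1 RPKM against 24.4 and 26.7 RPKM. Of these 9, Thy1 alone was called lower (2.13 and 1.99 against 9.85 and 11.8 RPKM), and the median log2 fold change of the 6 tested was 0.169. Their part in the collagen changes was not tested.

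In cells given PlaB, Dux knockdown was accompanied by higher levels of the leading basement membrane collagens. Of the 41 genes, 12 were higher and 10 lower than in PlaB, with 54.9% of all tested genes called (26.1% as higher and 28.8% as lower) and a median of 0.342 against -0.135 over all genes. The collagen share called was close to that of all genes. Col4a1 stood at 163 and 161 CPM against 26.9 and 31.8 CPM (2.46 ± 0.13; edgeR adjusted p = 1.13e-15), and Col4a2 at 53.0 and 57.4 against 5.04 and 7.35 CPM (3.15 ± 0.18). Col18a1 stood at 224 and 228 CPM, beside 37.6 and 43.2 CPM in PlaB and 214 and 231 CPM in DMSO. Col5a1 stood at 19.5 CPM in both libraries against 2.91 and 2.77 CPM (2.78 ± 0.14), and Col9a2 at 9.2 and 9.75 against 2.03 and 1.59 CPM (2.39 ± 0.17). In all 5 genes the knockdown libraries were far above both PlaB libraries. Some of the genes that were higher in PlaB than in DMSO were lower here, among them Col7a1 and Col4a4. Col7a1 stood at 1.42 and 1.62 against 5.86 and 6.40 CPM (-2.01 ± 0.28), and Col4a4 was at the floor, at least 13.2-fold lower. Others were not called, with log2 fold changes of -0.914 for Col5a2, -0.941 for Col1a2 and 0.831 for Col6a4. The comparison shares the PlaB libraries with that of PlaB against DMSO, so a level high or low in PlaB by itself turns both. The call of Col6a1, which stood at 0.236 and 0 against 0.484 and 0.635 CPM, was lost without Dux KD PlaB replicate 2 (edgeR adjusted p = 0.219) or PlaB replicate 2 (0.0644). Of the pluripotency markers 6 of 7 were higher than in PlaB, with sums of 2184 and 2169 RPKM against 1061 and 1052 RPKM. Of the fibroblast markers 4 of 9 were higher (11.7 and 12.8 against 3.73 and 4.10 RPKM), with Twist2, Prrx1, Postn, Dcn and Lum at the floor. Of the 8 endoderm markers 2 were higher and 4 lower (4.58 and 4.94 against 5.33 and 5.96 RPKM). Their part was not tested.

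The effect of the knockdown differed between PlaB and RA for 20 collagen genes by the interaction test, 15 with a larger value in PlaB and 5 with a smaller one, while 52.2% of all tested genes differed, 25.5% with a larger and 26.6% with a smaller value. The difference of the log2 fold changes was 4.495 ± 0.23 for Col4a2 (edgeR adjusted p = 1.06e-15), 3.90 ± 0.18 for Col5a1 and 3.68 ± 0.17 for Col4a1. For Col18a1 it was 3.49 ± 0.14. For these 4 genes the Dux KD libraries lay above those without the knockdown in PlaB and below them in RA.

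The libraries labelled Dux KD Zscan4 OE, in which Zscan4c was far below Zscan4 OE as given above, differed from Zscan4 OE in 6 collagen genes, 1 higher and 5 lower, with 11.1% of all tested genes called, 5.78% as higher and 5.35% as lower. Col13a1 stood at 3.77 and 4.74 CPM against 12.8 and 12.0 CPM (-1.54 ± 0.16; edgeR adjusted p = 2.67e-08), with no overlap. Of Col13a1, Col5a2, Col8a2, Col12a1 and Col6a2, all called here, Col13a1 alone was called whichever library was left out. Without Zscan4 OE replicate 1, 3 genes were called. Col18a1 stood at 294 and 258 CPM against 151 and 159 CPM, short of a doubling. The replicates labelled Dux KD Zscan4 OE lay far apart for some collagens, such as Col4a1 at 125 and 81.5 CPM and Col6a5 at 2.60 and 8.13 CPM.

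SE KO cells given RA were compared with RA cells. Of the 41 genes, 4 were higher and 11 lower, with 17.6% of all tested genes called, 6.57% as higher and 11.0% as lower. Without replicate 1, the SE KO library with the wild-type genotype label, 14 were called, of which 13 were among the 15. Col4a1 was 216 and 229 CPM against 508 and 538 CPM (-1.24 ± 0.12; edgeR adjusted p = 2.94e-09), and Col4a2 was 141.5 and 135 against 256 and 287 CPM, just short of a halving (-0.97). Of 7 beaded filament chains 4 were lower, among them Col6a4 (0.233 and 0.254 against 2.51 and 2.66 CPM, -3.37 ± 0.39) and Col6a6 (1.16 and 2.03 against 6.78 and 8.57 CPM, -2.25 ± 0.36). Col6a1 went the other way, to 3.96 and 3.09 CPM from 1.06 and 1.44 CPM (1.49 ± 0.39). Col18a1 was again at the threshold (-1.03, -0.97 without SE KO RA replicate 2 and -0.99 without RA replicate 2).

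The 2 chains of type I collagen moved apart in SE KO RA. Col1a1 was 23.9 and 21.9 CPM against 7.0 and 9.64 CPM in RA (1.46 ± 0.19; edgeR adjusted p = 4.04e-07), its highest level in the series. Col1a2 was 5.44 and 5.12 CPM against 14.8 and 15.4 CPM (-1.51 ± 0.22; edgeR adjusted p = 2.64e-06). Neither gene overlapped between the groups. Type V split in the same way, with Col5a3 higher (10.5 and 9.44 against 2.47 and 2.61 CPM, 1.97 ± 0.23), Col5a2 lower (3.07 and 3.09 against 19.9 and 22.2 CPM, -2.77 ± 0.26) and Col5a1 at 60.1 and 60.9 against 69.4 and 79.3 CPM without a call. Per length, the ratio of Col1a2 to Col1a1 was 1.11 and 0.842 in RA and 0.120 and 0.124 in SE KO RA, and the ratio of Col5a2 to Col5a1 was 0.256 and 0.250 in RA and 0.0456 and 0.0452 in SE KO RA. In DMSO the same ratios were at most 0.0207 and 0.0111. Length is the exon length of the count table (12426 bases for Col1a2 and 6563 for Col1a1). The size of a ratio thus depends on the annotation, while its change between groups does not. The ratio of Col4a2 to Col4a1 moved less, from 0.568 and 0.601 to 0.739 and 0.667. SE KO RA cells had endoderm markers at 12.87 and 12.96 RPKM, below RA, and fibroblast markers at 31.5 and 29.3 RPKM, above it, with Postn, Dcn and Lum at the floor. Of the fibroblast markers Twist1 was called higher and Thy1 lower, and Pdgfrb, not called, stood at 20.4 and 18.9 RPKM against 10.2 and 11.2 RPKM. Pluripotency markers summed to 720 and 723 RPKM, the lowest of all groups. Their part was not tested.

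In cells given PlaB, the SE KO libraries held far more basement membrane collagen RNA than PlaB cells. Here 15 collagen genes were higher and 5 lower, with 52.0% of all tested genes called (25.9% as higher and 26.1% as lower) and a median of 0.864. Col4a1 stood at 258 and 282 CPM against 26.9 and 31.8 CPM (3.20 ± 0.13; edgeR adjusted p = 5.25e-18), Col4a2 at 91.1 and 103.5 against 5.04 and 7.35 CPM (3.97 ± 0.18), and Col18a1 at 337 and 397 against 37.6 and 43.2 CPM (3.18 ± 0.10). These levels of Col4a1 and Col4a2 were also above those of both DMSO libraries and both Dux KD PlaB libraries. Col5a2 stood at 13.2 and 13.4 CPM against 1.65 and 2.27 CPM (2.76 ± 0.28). Col9a2 rose by less, to 5.38 and 5.08 CPM from 2.03 and 1.59 CPM (1.53 ± 0.17), and stayed below both DMSO libraries. The transmembrane collagens Col23a1 (0.477 and 0.420 against 1.74 and 2.09 CPM) and Col25a1 fell, as did Col4a4, Col1a1 and Col9a3. The call of Col1a1 was lost without PlaB replicate 2 (-0.94), as was that of Col9a3 (edgeR adjusted p = 0.170), and that of Col4a5 without SE KO PlaB replicate 1 (edgeR adjusted p = 0.134). The SE KO PlaB replicates were the furthest apart of all groups, and 17 genes were called without replicate 1 (16 among the 20) and 22 without replicate 2 (19 among the 20). Endoderm markers summed to 20.7 and 22.5 RPKM against 5.33 and 5.96 RPKM in PlaB, with Gata6 at 34.2 and 41.1 CPM. Fibroblast markers summed to 12.5 and 13.9 RPKM against 3.73 and 4.10 RPKM, with 4 of 9 called higher and 5 of 9 at the floor. Of the pluripotency markers 5 of 7 were higher, with sums of 1628 and 1679 RPKM against 1061 and 1052 RPKM. Their part was not tested.

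The effect of the enhancer knockout differed between PlaB and RA for 24 collagen genes, 18 with a larger and 6 with a smaller value in PlaB, while 49.0% of all tested genes differed, 28.3% with a larger and 20.7% with a smaller value. Without SE KO RA replicate 1, 24 differed, of which 23 were the same. Col5a2 had the largest positive difference among the named genes (5.53 ± 0.38; edgeR adjusted p = 5.28e-13), as it fell in RA and rose in PlaB with the knockout. Col4a2 (4.94 ± 0.23), the scarce Col28a1 (4.57 ± 1.28) and Col4a1 (4.43 ± 0.18) followed. Col1a1 had a difference of -2.59 ± 0.33 (edgeR adjusted p = 1.02e-07), as it rose in RA and fell in PlaB, and Col23a1 had -2.87 ± 0.48.

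SE KO cells with Dux OE differed from Dux OE cells in 9 collagen genes, 8 higher and 1 lower, where 6.30% of all tested genes were called, 2.46% as higher and 3.84% as lower. The 8 were collagens of interstitial connective tissue and Col4a6. Col1a2 stood at 19.5 and 20.4 CPM against 0.802 and 0.676 CPM (4.74 ± 0.31; edgeR adjusted p = 2.82e-11), its highest level in the series. Col12a1, a fibril-associated collagen of tendon and skin, stood at 9.56 and 10.01 CPM against 0.656 and 0.946 CPM (3.59 ± 0.39). Col3a1 stood at 3.08 and 4.25 CPM, at least 17.4-fold above Dux OE, and it had at most 0.408 CPM in every library of the other 12 groups. No library of Dux OE overlapped with SE KO Dux OE in any of these genes.

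Col1a1 stood at 13.8 and 12.1 CPM against 3.35 and 3.04 CPM (2.02 ± 0.22), Col5a2 at 6.85 and 8.34 against 1.24 and 2.30 CPM (2.08 ± 0.30), and Col6a3 at 2.28 and 2.95 against 0.219 and 0.270 CPM (3.38 ± 0.59). Col6a1 stood at 2.97 and 4.12 against 0.948 and 1.35 CPM and Col4a6 at 1.27 and 1.28 CPM, at least 6.05-fold above Dux OE. Col4a6 had at most 0.419 CPM in any library of the other groups. Without Dux OE replicate 1 the call of Col6a1 was lost (edgeR adjusted p = 0.0733), and without Dux OE replicate 2 that of Col4a6 (0.0648). DESeq2 did not call Col3a1 (DESeq2 adjusted p = 0.187). Col26a1, at 0.637 and 1.67 against 2.33 and 3.04 CPM, was the lower gene and lost its call without Dux OE replicate 1 (edgeR adjusted p = 0.0575), Dux OE replicate 2 (0.233) or SE KO Dux OE replicate 1 (0.319). The leading genes of these cells were not called, with Col18a1 at 326 and 370 against 406 and 432 CPM and Col4a1 at 121.5 and 128.5 against 84.2 and 88.0 CPM.

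**Figure D4:**
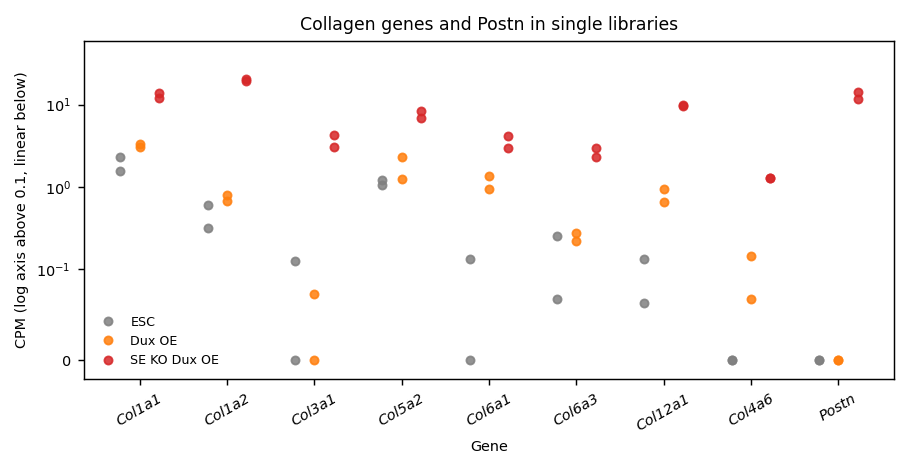
CPM of the 8 collagen genes higher in SE KO Dux OE than in Dux OE, and of the fibroblast marker Postn, in each library of ESC, Dux OE and SE KO Dux OE (vertical axis logarithmic above 0.1 and linear below). Both SE KO Dux OE libraries lie above all libraries of the other 2 groups for every gene shown.

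A fibroblast marker moved with these genes. Postn, a matrix protein of fibroblasts and osteoblasts, stood at 11.6 and 14.1 CPM in SE KO Dux OE, at 0 in Dux OE and ESC, and at no more than 0.127 CPM in any library of the other groups. The 9 fibroblast or feeder markers summed to 27.6 and 27.7 RPKM against 18.0 and 16.9 RPKM in Dux OE, and 1 of 9 was at the floor against 5 of 9. Of the 6 markers tested, 2 were called higher, Postn and Prrx1, the latter at 1.46 and 1.90 CPM against 0. Thy1, at 67.6 and 66.0 CPM against 43.0 and 40.8 CPM, was not called, nor were Fbn1 and Twist1. Pdgfrb, also not called, stood at 11.6 and 14.4 CPM against 14.7 and 13.5 CPM. Lum and Dcn stayed at or under 0.262 CPM. The SE KO Dux OE libraries were also the deepest of the series, and CPM corrects for depth but a gene near the floor is seen more easily there. The part of these values in the collagen differences was not tested. In the other SE KO groups Postn was at the floor and Col3a1 at or near it. SE KO RA had a fibroblast marker sum of 31.5 and 29.3 RPKM, beside the highest Col1a1 of the series. Its Prrx1 stood at 0.931 and 0.508 CPM, beside 0.529 and 0.792 CPM in RA and 0.862 and 1.30 CPM in Dux KD RA.

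Genes that make, process or bind collagen were taken from 5 lists. In RA, 9 of 20 genes of procollagen modification and folding were higher and 1 was lower than in DMSO, 8 and 2 of 14 for processing and crosslinking, and 6 and 1 of 9 for degradation. Higher calls were made for 7 of 15 basement membrane partners and 5 of 8 receptors. Of all tested genes, 20.6% were called higher and 10.4% lower in RA. Serpinh1, the collagen chaperone HSP47, stood at 93.0 and 91.1 CPM in DMSO and at 299.8 and 301 CPM in RA. Loxl2, a crosslinking lysyl oxidase, stood at 45.7 and 45.0 against 106.6 and 119.5 CPM, and the collagen receptor Ddr2 at 0.170 and 0.494 against 86.1 and 85.2 CPM (7.97 ± 0.21; edgeR adjusted p = 2.88e-21). The size of the Ddr2 change depended on the control, since untreated ESC stood at 7.85 and 8.07 CPM. Timp1, an inhibitor of matrix metalloproteinases, fell (-1.55 ± 0.13).

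In PlaB, lower calls outnumbered higher ones for modification (1 higher and 9 lower of 20), processing (2 and 7 of 14) and basement membrane partners (2 and 8 of 15). Receptors (3 and 3 of 8) and degradation (4 and 4 of 9) were evenly divided. Of all tested genes, 32.3% were called higher and 26.6% lower in PlaB, so a call there was common among all genes. Serpinh1 fell to 5.38 and 7.08 CPM (-3.88 ± 0.14; edgeR adjusted p = 3.46e-19) and Loxl2 to 0.291 and 0.454 CPM (-6.89 ± 0.35). Lamc1, the laminin chain that partners type IV collagen in basement membranes, stood at 35.8 and 33.5 CPM in PlaB, 492 and 499.8 CPM in DMSO and 403.5 and 406 CPM in Dux KD PlaB. Itga11, a receptor for fibrillar collagen, rose from 0 counts to 4.41 and 5.99 CPM and Ddr2 to 20.7 and 20.5 CPM. In SE KO PlaB, 8 of 15 basement membrane partners were higher than in PlaB, and 8 of 15 were so in Dux KD PlaB. The shares of all tested genes called higher were 25.9% and 26.1% in turn. In SE KO Dux OE, 2 genes of processing (Lox and Tll1) and 1 basement membrane partner (Lama4) were higher than in Dux OE. So were 2 receptors (Itga11 and Mrc2) and 1 gene of degradation (Mmp13), where 2.46% of all tested genes were called higher. The lists were read by these counts alone.

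Across the 13 groups, 31 of the 44 genes had their highest mean in a group given retinoic acid, 12 in SE KO RA, 12 in RA and 7 with the knockdown. SE KO Dux OE was highest for 6 and PlaB for 3. PlaB was lowest for 13, more than any other group, and DMSO held 14 genes at the floor, also more than any other group. These orders were counted over the collagen genes alone, so whether they are particular to collagen was not tested. They include the scarce genes that were not tested, with Col4a3 and Col19a1 highest in Dux KD RA and Col10a1 in Dux OE. Neighbours in such an order often did not differ beyond their spread. Col9a2, for example, was 56.1 and 60.4 CPM in SE KO RA, 54.4 and 54.3 CPM in Dux KD RA and 54.4 and 54.0 CPM in RA.

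Position in the genome was shared by several of these genes. Col4a1 (chr8:11198423-11312826, minus strand) and Col4a2 (chr8:11312805-11449287, plus strand) lie head to head with 22 bases in common, Col4a4 and Col4a3 head to head on chromosome 1 with 71 bases between them, and Col4a6 and Col4a5 head to head on the X chromosome with 1308 bases between them. The first pair moved together in RA, PlaB and both PlaB comparisons with a genetic change. The last did not, since Col4a5 reached 17.3 and 15.7 CPM in RA with Col4a6 at the floor, while in SE KO Dux OE Col4a6 was called and Col4a5, at 3.82 and 4.29 CPM against 2.26 and 2.77 CPM, was not. Col3a1 and Col5a2, tail to tail on chromosome 1, were both higher in SE KO Dux OE, but in RA Col5a2 rose with Col3a1 at or near the floor. Reads of opposite-strand neighbours could not be told apart without a stated strand setting, and the largest such overlap of exons was 6.1% of Col9a3, with Tcfl5.

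The 3 genes that were not tested were hardly counted. Col4a3, the third chain of the kidney network, had 63 counts over all libraries and at most 0.707 CPM. Col10a1, the collagen of hypertrophic cartilage, and Col19a1 had 27 counts each, with at most 0.292 and 0.187 CPM.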

How the data were processed

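RNA-seq was made from poly(A) RNA of 26 libraries, and the deposited file is a table of raw counts per gene that the authors produced. Per the labels and the submitters' processing notes, FastQC, Trimmomatic, STAR, featureCounts and DESeq2 were used on mm10, with versions and the strand setting not given in the sources used here. The coordinates of all 44 collagen genes matched the GENCODE M21 annotation. Multi-mapping reads and near-identical gene copies could not be checked.

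Counts were fitted with edgeR 4.0.16 (R 4.3.3) in 1 quasi-likelihood model of 13 groups, with TMM scaling and filterByExpr, which kept 20953 of 55291 genes. Adjusted p-values are Benjamini-Hochberg values over all tested genes, and each comparison between groups, 13 in all, and 2 interaction contrasts were taken from this model, with a prior count of 0.125. A call needed an adjusted p under 0.05 and a log2 fold change of at least 1 in size. All collagen genes could be named. The pathway lists served for counts. The tests were checked on simulated counts of 18369 genes, with a simulated log2 change of 2 in 200 genes per contrast. For RA against DMSO 98.0% were recovered, with 4 false calls. For the difference of Dux KD effects 87.5% were recovered, with 6 false calls. Changes of other sizes were not simulated, and the dispersion was set at 0.02 for all genes. Alternatives were RLE scaling, library size only, no filter on low counts, DESeq2 1.42.0, a replicate block, the other control and leaving out each library. Equal replicate numbers did not mark related libraries (correlation of deviations between -0.0473 and 0.0237). Library totals of 14401452 to 39402840 counts set the floor of 3 counts, which covers counting error only. The genes, lists and tests were chosen with earlier results of these data known.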

Additional observations from a re-analysis of the deposited data

Results flagged for a closer look

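Log2 fold changes of Dux KD cells against those without the knockdown differed between PlaB and RA for 20 collagen genes. This was by the interaction contrast of the edgeR model, where 52.2% of all tested genes differed, so the collagen count lay near that background. The difference of log2 fold changes (PlaB minus RA) was 4.495 for Col4a2, which stood 3.15 higher in PlaB and 1.34 lower in RA with the knockdown. It was 3.90 for Col5a1 (2.78 and -1.12) and 3.68 for Col4a1 (2.46 and -1.22). It was -5.32 for Col4a4 (-4.63 and 0.69), -3.08 for Col8a1 (-1.16 and 1.92) and -3.06 for Col14a1 (-2.60 and 0.46). It was -1.38 for Col20a1 (-2.05 and -0.68), and -1.17 for Col7a1 (-2.01 and -0.85). The Col20a1 difference was lost by leaving out any of several single libraries, and that of Col7a1 without Dux KD PlaB replicate 1 (edgeR adjusted p = 0.0513).

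Log2 fold changes of SE KO cells against those without the knockout differed in the same way for 24 collagen genes, where 49.0% of all tested genes differed. The difference was 5.53 for Col5a2 (2.76 in PlaB and -2.77 in RA), 4.94 for Col4a2 (3.97 and -0.97) and 4.43 for Col4a1 (3.20 and -1.24). It was -2.87 for Col23a1 (-2.08 and 0.79), -2.59 for Col1a1 (-1.12 and 1.46) and -2.29 for Col25a1 (-2.27 and 0.01). The Dux KD and SE KO effects share the PlaB and RA libraries, so the 2 sets of differences are not independent.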

How the results depend on the processing

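Among the 15 counts of called collagen genes, RLE scaling, library size only, no filter, DESeq2 and the replicate block kept each within 1.5 times its value. Exchanging the 2 controls changed Dux OE from 4 to 13 genes (3 shared) while the share of all tested genes called went from 9.51% to 18.2%, and Dux R70A OE from 11 to 7 (5 shared) with 16.9% to 9.05%, and the cause was not tested. RA went from 35 to 32 (31 shared), PlaB from 24 to 16 (14 shared) and Zscan4 OE from 10 to 7 (4 shared). The shares of all tested genes called went from 31.0% to 30.1%, from 58.9% to 56.0% and from 11.6% to 12.8% in turn. With the other control, log2 values reversed for Col5a3 in RA (0.323), Col8a2 (-0.025) and Col6a5 (1.124) in Zscan4 OE and Col6a5 in Dux R70A OE (0.059). Leaving out 1 library moved the log2 value of Col3a1 between 0 and 5.934 in PlaB against DMSO and between -5.934 and 0 in Dux KD PlaB against PlaB, with 0 without PlaB replicate 2.

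Leaving out 1 library gave 32 to 35 genes in RA, 20 to 24 in PlaB, 7 to 9 in DMSO against ESC, 7 to 9 in Zscan4 OE, 3 to 6 in Dux OE, 10 to 14 in Dux R70A OE against ESC and 7 to 10 against Dux OE. It gave 10 to 11 in Dux KD RA, 18 to 25 in Dux KD PlaB, 3 to 7 in the libraries labelled Dux KD Zscan4 OE, 11 to 14 in SE KO RA, 16 to 22 in SE KO PlaB and 7 to 11 in SE KO Dux OE. The differences of effects ran from 19 to 21 and from 20 to 25. The lowest counts came without DMSO replicate 1 (7), Dux OE replicate 1 (7, Dux R70A OE) and Zscan4 OE replicate 1 (3). In each of the fits just named, the share of all tested genes called was also lower than in the full fit. Shares for the other fits are not given here. A lone library left in a group was assumed to vary like the other groups.

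With library size only, the median of all genes moved from 0.105 to 0.298 in RA and from 0.224 to 0.481 in PlaB, and from -0.135 to -0.334 in Dux KD PlaB. The replicate block, for numbers that do not mark related libraries, gave 21 genes in Dux KD PlaB, 5 in the libraries labelled Dux KD Zscan4 OE and 19 for the difference of Dux KD effects. Depth limits genes near the floor of 3 counts, whose fitted folds depend on the prior count.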
